A study of Homo sapiens with 47 samples.

Results

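The mesenchymal fraction of long-term human pre-neural progenitor cultures was compared between passage 8 (P8_MES) and passage 5 (P5_MES). The comparison rests on 6 of the 47 libraries of the study, 3 per passage, taken by their label, and the library of differentiation r1, r2 or r3 at P8 was set against that of the same differentiation at P5. All 6 came from the established human embryonic stem cell line WA09 (H9), so every value describes 1 genetic background. Cells had been kept for 36 h, and then through each passage, in N2B27 medium without vitamin A that held CHIR-99021 (a GSK3 inhibitor that activates WNT signaling), rhFGF2, AGN193109 (an inverse agonist of retinoic acid receptors) and Y-27632 (a ROCK inhibitor). The same agents were present in every group used here, at both passages. The mesenchymal cells were split from the epithelial ones by TrypLE, which loosens them first, so P5_MES and P8_MES, like their epithelial counterparts P5_EPI and P8_EPI, are enriched and not pure fractions. RNA was selected for poly(A) and read once over 75 bp. Totals of expected counts ran from 24317552 in P8_MES r2 to 64082859 in P8_MES r1, and those of the P5_MES libraries from 46558218 to 48535989.

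Neural crest cells form at the border of the neural tube, leave the epithelium and migrate as mesenchyme. They give rise to glia, peripheral neurons and pigment cells, and in the head also to bone and cartilage. Cells of the trunk crest carry the *HOX* code of the axial level at which they arose. *HOX* genes are switched on in the order of their paralogue numbers, so that the posterior members come last.

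The labelled identity was first checked against 15 genes known from neural crest and its mesenchyme. Each of the 15 was detected in both passages, and 12 had a higher mean TPM (a level scaled for transcript length and depth) in P5_MES than in P5_EPI. At P8 the count was 11. Their summed TPM was 4281, 3137 and 3272 in r1, r2 and r3 of P5_MES and 1963, 2053 and 2430 in P5_EPI, so the fractions did not overlap. At P8 the sums were 3151, 3571 and 5865 in P8_MES and 1640, 2919 and 4740 in P8_EPI, where the fractions overlapped although P8_MES was higher within each differentiation. Among 12962 genes that averaged 100 or more normalized counts, 1305, 898 and 1236 genes differed more than 2-fold between the fractions of r1, r2 and r3 at P5, and 702, 314 and 563 at P8. The mesenchymal and epithelial fractions of a culture therefore lay closer together at P8. In bulk RNA, fewer cells of a type and less RNA per cell cannot be told apart, and the part of this in the changes below was not tested.

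The P8_MES libraries also differed more among themselves. The root-mean-square log2 distance between libraries was 0.49 to 0.58 within P5_MES and 0.53, 0.66 and 0.78 within P8_MES, and P8_MES r3 was the farthest from P8_MES r1. The P5 and P8 libraries of a differentiation were 0.65 apart for r1, 0.77 for r2 and 0.93 for r3.

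Of 18885 genes tested with edgeR's quasi-likelihood test, 525 were higher and 218 lower in P8_MES than in P5_MES at a Benjamini-Hochberg adjusted p under 0.05. That is 2.78% and 1.15% of the genes tested. All 743 moved in the same direction in each of the 3 differentiations, and 403 of the higher and 121 of the lower genes changed at least 2-fold. A further threshold of an adjusted p under 0.01, a 2-fold change and a mean of 100 normalized counts left 13 higher (0.0688%) and 3 lower (0.0159%). The median log2 fold change over all genes tested was 0.00. These counts rest on r2 and r3: without r1 the test called 768 higher and 517 lower, with 464 of the 743 among them, but without r2 it called 4 higher and 0 lower, and without r3 it called 0 in either direction. Of the 743 genes, 740 and 738 had a value without r2 and without r3, and all of those kept their sign. No gene named here was a call without r3. The fit also takes its spread from the epithelial pairs of the same 3 differentiations, whose changes went along with those of the mesenchymal pairs, so the pairs are not independent. The 6 MES libraries alone gave 73 higher and 15 lower genes, and of the 95 named genes past the test these 20 were called there: *CXCL14*, *EMP1*, *DHRS3*, *ANXA1*, *CAVIN1*, *SLC38A5*, *FGF10*, *TFAP2C*, *ITGA4*, *TYRP1*, *RUNX2*, *TNC*, *THBS1*, *BMP2*, *BMP7*, *TGFB2*, *SFRP4*, *NR2F1*, *PBX3* and *UNC5C*. The remaining 75 were not called there, and the few genes added outside the naming rule were not looked up in that fit.

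Among called genes that averaged 100 or more normalized counts in the 6 libraries, the largest rise was that of *CXCL14*, a chemokine (chr5:135570679-135579279). It had 27.2, 45.2 and 10.7 normalized counts in r1, r2 and r3 of P5_MES and 1557, 7528 and 6255 in P8_MES (log2 fold change 7.33 ± 0.59 SE, edgeR adjusted p = 0.0097). *EMP1*, a tetraspan membrane protein (chr12:13196716-13219939), went from 86.9, 320 and 122 to 5148, 12556 and 8140 normalized counts (log2 fold change 5.72 ± 0.48 SE, edgeR adjusted p = 0.011). For both genes the lowest P8 library was far above the highest P5 library. *CAVIN1*, a coat protein of caveolae, rose by 4.20 on the log2 scale (SE 0.27), from 188, 402 and 72 to 3349, 5703 and 1916 normalized counts, with an edgeR adjusted p of 0.0073. The secreted WNT-induced protein *WISP1* (CCN4) had 23.5, 16.7 and 3.89 counts at P5 and 1240, 431 and 922 at P8, and rose by 5.86 on the log2 scale. *IGFBP3*, which binds insulin-like growth factors, rose by 4.43, *ANXA1*, an annexin, by 4.41 and *CDH13*, a cadherin without a cytoplasmic tail, by 4.09. Among transcription factors outside the *HOX* clusters, *RUNX3* rose by 4.55, with 22.6, 36.4 and 44.7 counts at P5 and 190, 823 and 2731 at P8. *APELA*, a peptide ligand of the apelin receptor, had at most 27.5 counts at P5 and 53.8, 383 and 178 at P8, a log2 fold change of 4.78. *EVX2*, *HOTTIP* and 3 *HOX13* genes complete the 15 genes with the largest rise, apart from *DHRS3*, and are given below.

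By the same rule, the largest fall was that of *CLDN11*, a claudin of tight junctions (chr3:170418865-170454733). It had 1445, 1319 and 2059 normalized counts in P5_MES and 108, 27.9 and 37.4 in P8_MES (log2 fold change -4.95 ± 0.74 SE, edgeR adjusted p = 0.026). *NPR1*, a receptor for natriuretic peptides, went from 1129, 1460 and 2036 to 101, 22.3 and 51.3 counts, a log2 fold change of -4.83. *APLNR*, the apelin receptor to which *APELA* binds, had 15070, 6742 and 7947 counts at P5 and 3111, 232 and 355 at P8 (log2 fold change -3.88 ± 0.54 SE, edgeR adjusted p = 0.021). The receptor was thus lower in P8_MES where its ligand *APELA* was higher. *SPOCK3*, a secreted proteoglycan, fell by 4.12 on the log2 scale, the complement component *C7* by 3.94, the amino acid transporter *SLC38A5* by 3.87 and the tetraspanin *CD82* by 3.61. *FGF10* had 110, 410 and 559 counts at P5 and 12.4, 29.7 and 58.7 at P8, and fell by 3.40 (SE 0.33, edgeR adjusted p = 0.012). The other members of the 15 genes with the largest fall were *TRDC*, *PEG13*, *XIRP2*, *ABHD12B*, *SLC7A14*, *KCNIP1* and *D21S2088E*, with log2 fold changes from -3.88 to -3.27. In all 30 genes of both sets the libraries of P5_MES and P8_MES did not overlap. The choice of called genes with the largest change, in 1 direction in all 3 pairs, nearly fixes this. Over all genes tested, whatever their change, all P8 libraries lay above all P5 libraries in 14% and below them in 12.8%.

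**Figure D1:**
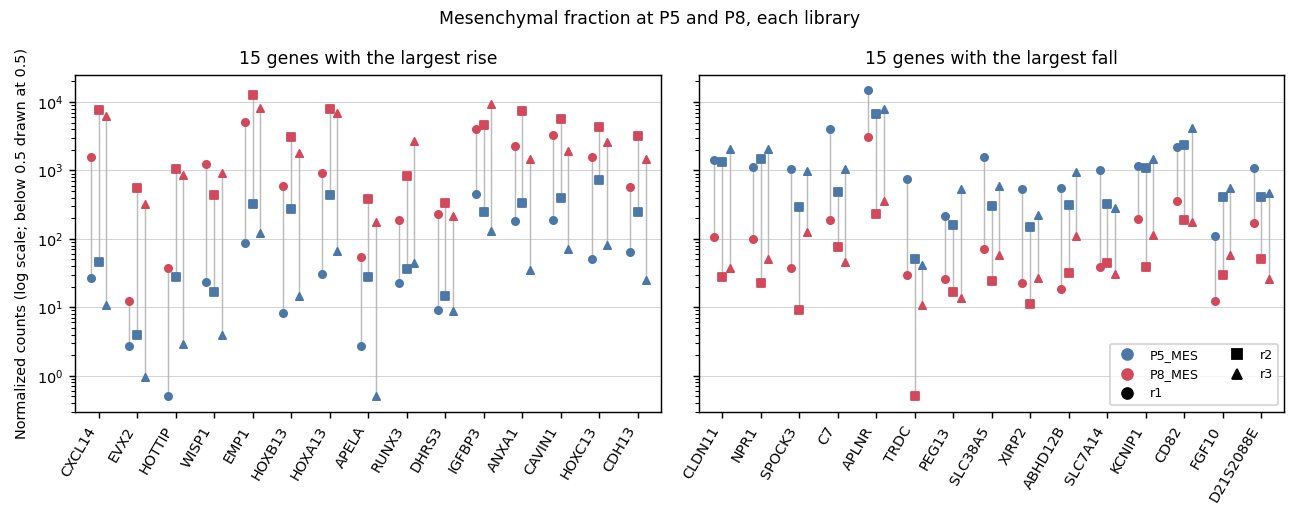
Normalized counts on a log axis for the 15 genes with the largest rise (left) and the 15 with the largest fall (right); each point is 1 library, its shape gives the differentiation, and a grey line joins the P5_MES and the P8_MES library of a differentiation. The P5 and P8 points of a gene do not overlap in any of the 30 genes, and r1 had the lowest P8 value of *CXCL14*, *EMP1* and *HOXA13*.

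The same genes were read in whole, unsplit cultures, which are other libraries of the same differentiations. All 15 risers had a higher mean at P8 than at P5 there, and all 15 fallers a lower one. *CXCL14* had a mean of 22.9 normalized counts in whole cultures at P5, 4479 at P8, 12360 at P9 and 4951 at P10. *CLDN11* had 1012, 43.3, 23.2 and 53.5. The P9 means cover r1 and r2 only, whereas those of P8 also hold r3. Of the 15 risers, 11 were higher again at P9 than at P8. Of the 15 fallers, 8 were also higher at P9 than at P8, and *FGF10* had 260.8 at P5, 51.3 at P8, 280.0 at P9 and 212.9 at P10.

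The 250 bases upstream of the RefSeq start (GRCh38.p14) were searched for the AP-1-like string TGANTCA on both strands. It covers TGAGTCA, the AP-1 site that FOS and JUN proteins bind. It also accepts TGAATCA and TGATTCA, which differ from that site, and the shares below count all forms. A match was found in 8.85% of the 373 promoters of higher genes with an entry, in 1.19% of the 168 of lower genes and in 3.95% of the 12099 of all genes tested. Of the 95 named genes past the test, *CXCL14*, *EMP1*, *RUNX2*, *GPNMB*, *DLX1* and *SOX6* had a match, and all but *SOX6* were higher at P8. Risers also outnumbered fallers among all calls, 525 against 218. These few genes are therefore examples and are not read as an excess among the named genes. The windows of 4 of the risers are printed with the matches in capitals: *CXCL14* and *EMP1* are among the 15 genes with the largest rise, and *RUNX2* and *GPNMB* are the called members with a match in the bone and melanocyte lists. *GPNMB* is a low gene, under a mean of 100 normalized counts, and was not called with no block or in the MES libraries alone. *EMP1* has 2 matches, TGAGTCA and the looser form TGATTCA.
CXCL14 (chr5:135578992-135579241, minus strand): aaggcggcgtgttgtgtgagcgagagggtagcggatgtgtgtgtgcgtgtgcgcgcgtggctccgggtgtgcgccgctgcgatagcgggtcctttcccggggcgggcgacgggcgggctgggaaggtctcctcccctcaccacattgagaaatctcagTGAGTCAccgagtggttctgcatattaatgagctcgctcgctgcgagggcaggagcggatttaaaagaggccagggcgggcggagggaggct
EMP1 (chr12:13196476-13196725, plus strand): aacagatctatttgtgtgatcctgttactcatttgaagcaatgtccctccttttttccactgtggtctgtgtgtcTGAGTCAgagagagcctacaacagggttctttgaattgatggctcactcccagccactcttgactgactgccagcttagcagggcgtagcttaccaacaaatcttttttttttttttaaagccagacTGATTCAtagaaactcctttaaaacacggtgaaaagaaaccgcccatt
RUNX2 (chr6:45328080-45328329, plus strand): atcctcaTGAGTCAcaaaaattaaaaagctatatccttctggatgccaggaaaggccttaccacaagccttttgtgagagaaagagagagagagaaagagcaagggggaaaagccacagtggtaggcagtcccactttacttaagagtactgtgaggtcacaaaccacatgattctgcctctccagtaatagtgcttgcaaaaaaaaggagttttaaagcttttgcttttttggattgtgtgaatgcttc
GPNMB (chr7:23246525-23246774, plus strand): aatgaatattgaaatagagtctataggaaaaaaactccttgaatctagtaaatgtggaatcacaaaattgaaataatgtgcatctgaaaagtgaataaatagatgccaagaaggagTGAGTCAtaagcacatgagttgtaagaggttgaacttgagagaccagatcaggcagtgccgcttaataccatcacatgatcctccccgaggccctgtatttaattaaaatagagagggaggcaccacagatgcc
The match of *CXCL14* begins 92 bases before the RefSeq start, those of *EMP1* 175 and 48 bases before it, that of *RUNX2* 243 and that of *GPNMB* 134. By the GENCODE position given above, the *CXCL14* window lies within the gene, so its match is upstream of the RefSeq start only. A match is a string of letters and no evidence of binding. Other motifs were searched on both strands in the same windows. The TEAD motif GGAATG was in 10.5% of promoters of higher genes, 11.3% of lower and 9.53% of all. The TATA box TATAAA was in 7.77%, 7.74% and 5.83%, and TTTATNG, a motif of CDX proteins that can overlap TATAAA, in 5.9%, 5.95% and 5.82%. The posterior HOX motif CCAATAAA was in 0.268%, 1.19% and 0.752%, and CTCGTAAA was in 8 of the 12099.

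The 4 *HOX13* genes rose, and most of the other *HOX* genes did not pass the test. *HOXA13* (chr7:27193503-27200106) had 30.8, 437 and 66.1 normalized counts in r1, r2 and r3 of P5_MES and 906, 7810 and 6883 in P8_MES (log2 fold change 5.18 ± 0.58 SE, edgeR adjusted p = 0.016). *HOXB13* (chr17:48724763-48729178) went from 8.15, 271 and 14.6 to 584, 3077 and 1812 (log2 fold change 5.19 ± 0.96 SE, edgeR adjusted p = 0.041). *HOXC13* (chr12:53938765-53946544) went from 50.7, 731 and 81.7 to 1585, 4255 and 2634 (log2 fold change 4.10 ± 0.81 SE, edgeR adjusted p = 0.048). *HOXD13* (chr2:176092891-176095938) went from 75.2, 715 and 65.2 to 1881, 4413 and 2372 (log2 fold change 4.08 ± 0.70 SE, edgeR adjusted p = 0.035). In all 4 genes the r2 library was the highest at P5, and no P8 library was below it. *HOXC12* had 12.7, 3060 and 150 counts at P5 and 6776, 10880 and 5452 at P8, and *HOXD12* had 29, 630 and 64.2 at P5 and 1774, 1453 and 618 at P8. These 2 did not pass (log2 fold changes of 4.93 and 3.29, SE 1.88 and 1.30, edgeR adjusted p = 0.17 and 0.18), and in *HOXD12* the P5 library of r2 lay above the P8 library of r3. Of the 6 *HOX12* and *HOX13* genes 4 thus rose, where 2.78% of all genes tested did, and the median log2 fold change of the 6 was 4.51. None of the 4 was called with no block or in the 6 MES libraries alone.

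Transcripts beside *HOX13* genes rose as well. *EVX2*, a homeobox gene next to *HOXD13* at the end of the *HOXD* cluster, had 2.72, 3.93 and 0.973 counts at P5 and 12.4, 548 and 329 at P8 (log2 fold change 6.37 ± 1.06 SE, edgeR adjusted p = 0.034). *HOTTIP*, a long noncoding RNA that starts beside *HOXA13*, had 0, 27.5 and 2.92 at P5 and 37.9, 1057 and 850 at P8 (log2 fold change 6.30 ± 0.88 SE, edgeR adjusted p = 0.021). *HOTTIP* (chr7:27198575-27207259) overlaps *HOXA13* on the other strand, and the strand setting of the counting is not given in the sources used here, so reads of the overlap cannot be assigned to either with certainty. For *HOXD13* and *EVX2*, neighbors that rose in all 3 differentiations, the upstream windows are printed with TATAAA on either strand in capitals (in *HOXD13* the matches of both strands overlap).
HOXD13 (chr2:176092471-176092720, plus strand): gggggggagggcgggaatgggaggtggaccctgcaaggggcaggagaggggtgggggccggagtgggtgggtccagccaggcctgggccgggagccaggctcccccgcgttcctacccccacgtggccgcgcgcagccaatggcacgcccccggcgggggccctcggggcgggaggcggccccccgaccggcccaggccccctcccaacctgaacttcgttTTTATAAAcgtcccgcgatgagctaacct
EVX2 (chr2:176083963-176084212, minus strand): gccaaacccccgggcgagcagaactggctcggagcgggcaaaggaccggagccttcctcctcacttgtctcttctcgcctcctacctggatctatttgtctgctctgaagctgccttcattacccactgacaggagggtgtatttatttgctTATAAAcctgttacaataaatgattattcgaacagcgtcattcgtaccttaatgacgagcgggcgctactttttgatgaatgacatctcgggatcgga
The *HOXD13* window has 74% G and C and its plus-strand TATAAA begins 27 bases before the RefSeq start. The *EVX2* window has 50% and its TATAAA begins 98 bases before its own. The GENCODE start of *HOXD13* given above lies farther downstream, so these distances hold for the RefSeq starts alone.

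Among the 12 genes of *HOX1* to *HOX4* none passed the test, 6 had a positive and 6 a negative log2 fold change, and the median was 0.00. *HOXB3* had 5285, 4186 and 2183 counts at P5 and 7435, 4806 and 2246 at P8 (log2 fold change 0.23, edgeR adjusted p = 0.25). Among the 15 genes of *HOX5* to *HOX9* only *HOXC5* passed, with 986, 392 and 726 counts at P5 and 181, 48.3 and 54.5 at P8 (log2 fold change -3.06, SE 0.54, edgeR adjusted p = 0.037), and the median of the 15 was -0.61. *HOXB9*, the most abundant of them, had 11744, 12705 and 6038 counts at P5 and 17588, 11382 and 6475 at P8 (log2 fold change 0.16). None of the 6 *HOX10* and *HOX11* genes passed, and their median was 1.09. *HOXD10* came nearest, with 851, 2544 and 587 counts at P5 and 5589, 4376 and 2164 at P8 (log2 fold change 1.78, SE 0.49, edgeR adjusted p = 0.094). In all, 5 of the 39 *HOX* genes changed, where 3.93% of all genes tested did.

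The balance of the clusters was summed up in a *HOX* index, the mean paralogue number of the 39 genes weighted by TPM. It was 6.76, 7.58 and 7.1 in r1, r2 and r3 of P5_MES and 7.67, 8.21 and 8.64 in P8_MES, so that the passages did not overlap. It was higher at P8 in all 3 differentiations, by 0.91, 0.63 and 1.54, a mean of 1.03 (SD 0.47, n = 3 pairs), and the exact two-sided permutation test over pairs gave p = 0.25, the smallest that 3 pairs allow. *HOX12* and *HOX13* genes held 0.191%, 3.82% and 0.575% of the summed *HOX* TPM at P5 and 6.74%, 20.6% and 19.7% at P8. In P5_EPI the index was 6.84, 7.54 and 7.29 and in P8_EPI 7.49, 8.01 and 8.46, and the change had a mean of 0.76 (SD 0.36, n = 3 pairs). Whole cultures had means of 7.17 at P5 and 8.04 at P8. The 2 whole cultures of P9 had 10.44 and 9.77, above every P8_MES library. The 3 of P10 had 7.84, 11.01 and 10.54, and the first of them lay below P8_MES r2 and r3.

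**Figure D2:**
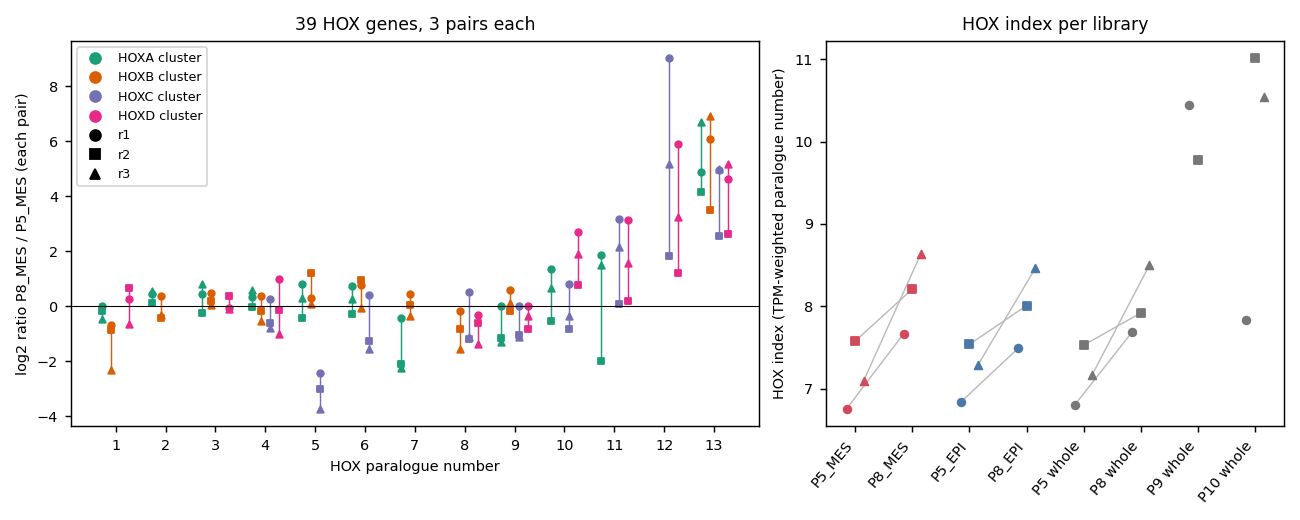
Left, log2 ratio of normalized counts (0.5 added) between P8_MES and P5_MES for the 39 *HOX* genes by paralogue number, with 1 point per differentiation, color for the cluster and a line over the range of the 3. Right, *HOX* index of each library, with grey lines joining P5 and P8 of a differentiation; every *HOX12* and *HOX13* point on the left is above 0, and the index of P8_MES lies between 7.67 and 8.64 against 6.76 to 7.58 in P5_MES.

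Of the 15 neural crest mesenchyme markers, 1 rose, 1 fell and 13 did not pass the test (2.78% and 1.15% of all genes), and their median log2 fold change was 0.58. Neither call was made in the 6 MES libraries alone, and with no block only that of *PAX3* was. *PAX3*, a regulator of crest induction, rose from 3334, 2642 and 1952 to 6511, 8465 and 7369 normalized counts (log2 fold change 1.50 ± 0.29 SE, edgeR adjusted p = 0.047). *CDH11*, the mesenchymal cadherin of migrating crest, fell from 62342, 59079 and 67473 to 24412, 31061 and 41951 (log2 fold change -1.01 ± 0.17 SE, edgeR adjusted p = 0.035). *SOX10*, which marks early crest and its glial and pigment descendants, had 197, 418 and 1426 counts at P5 and 209, 173 and 501 at P8 (log2 fold change -0.93, edgeR adjusted p = 0.19). It was almost level in r1 and lower at P8 in r2 and r3. *FOXD3*, which keeps crest cells multipotent, was higher at P8 in each differentiation, at 158, 152 and 391 against 494, 1345 and 2890, without passing (log2 fold change 2.55, SE 0.57, edgeR adjusted p = 0.062). *TFAP2B* had 468, 598 and 1883 counts at P5 and 813, 2005 and 13260 at P8 (log2 fold change 1.78, edgeR adjusted p = 0.18), while its paralogue *TFAP2A* had 1584, 3065 and 5965 at P5 and 539, 505 and 4078 at P8 (log2 fold change -1.57, edgeR adjusted p = 0.12). For *TWIST1*, a regulator of mesenchyme, r1 and r2 were lower at P8 and r3 higher (10104, 6815 and 9682 against 2599, 5937 and 12986).

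In the wider list of 23 neural crest specifiers 2 rose and 2 fell (2.78% and 1.15% of all genes), with a median log2 fold change of 0.51. *TFAP2C* rose from 547, 1065 and 444 to 2637, 4724 and 3385 counts (log2 fold change 2.43 ± 0.22 SE, edgeR adjusted p = 0.011), and *PAX3* was the other riser. *SOX6* fell from 4419, 2725 and 5264 to 1567, 1464 and 2048 (log2 fold change -1.27, edgeR adjusted p = 0.024) and *ZIC1* from 27537, 18191 and 25795 to 9910, 8422 and 14165 (log2 fold change -1.17, edgeR adjusted p = 0.024). The *ZIC1* call was lost with the block shared by both fractions (log2 fold change -1.22). Neither fall was called with no block. *MSX1*, one of the most abundant specifiers, had 13345, 14894 and 17847 at P5 and 7537, 9384 and 10767 at P8 and did not pass (log2 fold change -0.76, edgeR adjusted p = 0.091).

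Markers of crest derivatives changed unevenly. In the melanocyte list 3 of the 10 tested genes rose and none fell (2.78% and 1.15% of all genes), and the median was 1.95. The median in EPI was 2.28, so the rise was not particular to MES. The summed TPM was 50.7, 33.8 and 34.0 in P5_MES and 110, 52.7 and 50.3 in P5_EPI. At P8 it was 125, 86.3 and 191 in MES and 140, 115 and 94.6 in EPI, higher in MES in r3 alone. *MITF*, the master regulator of pigment cells, had 703, 514 and 448 counts at P5 and 2266, 3274 and 2531 at P8 (log2 fold change 2.27, SE 0.40, edgeR adjusted p = 0.037). *TYRP1*, an enzyme of melanin synthesis, rose from 4.53, 44.2 and 22.4 to 84.9, 589 and 250 (log2 fold change 3.73, edgeR adjusted p = 0.016), and *GPNMB*, a melanosome glycoprotein, from 4.53, 8.84 and 16.5 to 38.6, 65 and 312 (log2 fold change 3.45). *TYR* and *MLANA* were too low to be tested, and *KIT* did not pass at 934, 809 and 982 against 2447, 1141 and 8370.

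In the Schwann and glial list 2 of 15 rose (2.78% of all genes), among them the integrin *ITGA4* by 1.24 on the log2 scale, 14 of the 15 log2 fold changes were positive (50.1% over all genes), and 12 of the 15 were higher at P8 in all 3 differentiations, as were 24.9% of all genes. The median log2 fold change was 1.14 in MES and 1.34 in EPI. In EPI the summed TPM of the list was 92.2, 103 and 103 at P5 and 109, 305 and 555 at P8. In MES it was 137, 160 and 257 at P5 and 209, 335 and 1050 at P8, highest in P8_MES r3. In that library the neuregulin receptor *ERBB3* had 15748 counts, against 782 and 1962 in the others of P8. Of the 11 autonomic and enteric genes tested none passed, and their median was -0.28. *PHOX2A* and *DBH*, markers of noradrenergic neurons, were too low to be tested. Of 16 sensory and general neuronal genes 1 rose (2.78% of all genes), the neurotrophin receptor *NTRK2*, from 362, 96.3 and 66.1 to 1095, 1368 and 255 counts (log2 fold change 2.41, edgeR adjusted p = 0.040).

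*RUNX2*, which directs bone formation, was the only member of the 13 tested cartilage and bone genes to change, where 3.93% of all genes did. It rose from 99.6, 234 and 134 to 805, 1466 and 1622 counts (log2 fold change 3.06, SE 0.26, edgeR adjusted p = 0.011). *COL2A1*, the collagen of cartilage, had 11828, 26317 and 34096 counts at P5 and 14724, 17609 and 15012 at P8 and did not pass (edgeR adjusted p = 0.39). In the smooth muscle list of 12, 1 rose and 1 fell (2.78% and 1.15% of all genes). *MYOCD*, the coactivator that drives smooth muscle genes, fell from 6144, 7062 and 6695 to 1929, 1262 and 939 (log2 fold change -2.35, SE 0.22, edgeR adjusted p = 0.011). *SYNPO2* rose by 3.06 on the log2 scale. The *MYOCD* call was lost with the block shared by both fractions. Neither gene was called with no block or in the MES libraries alone. The contractile genes themselves split by differentiation. *TAGLN* had 14399, 13018 and 9789 counts at P5 and 26706, 30983 and 5089 at P8, higher at P8 in r1 and r2 and lower in r3, and *ACTA2* did the same (10695, 8450 and 4415 against 28104, 17670 and 1282).

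**Figure D3:**
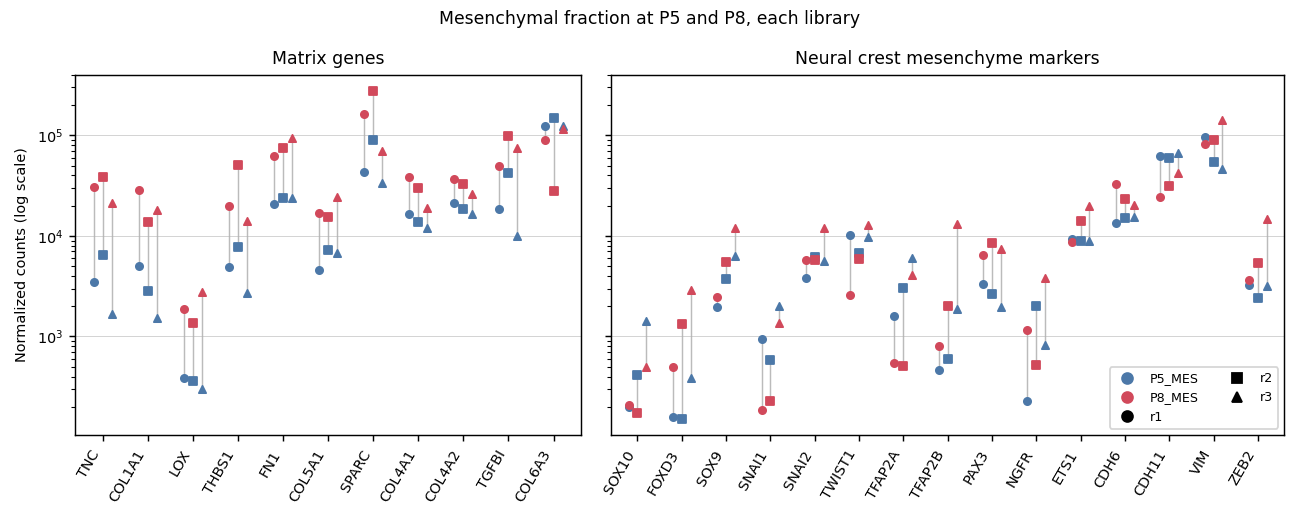
Normalized counts on a log axis for 11 matrix genes (left) and the 15 neural crest mesenchyme markers (right); points are libraries, shapes are differentiations, and grey lines join P5_MES and P8_MES of a differentiation. *TNC* and *COL1A1* are higher at P8 in every differentiation, whereas *TWIST1*, *NGFR* and *VIM* move in different directions in r1, r2 and r3.

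Genes of the extracellular matrix formed the list with the most calls by number. As a share of tested genes, *HOX12* and *HOX13* (4 of 6) and epithelial identity (5 of 14) had more. Of 27 fibrillar and matricellular genes 9 rose and none fell (2.78% and 1.15% of all genes), and the median log2 fold change was 0.84. *TNC* (tenascin C, chr9:115019578-115118257) rose from 3513, 6522 and 1659 to 30582, 38701 and 21212 counts (log2 fold change 3.10 ± 0.23 SE, edgeR adjusted p = 0.0076). *COL1A1* (chr17:50183289-50201632), a chain of type I collagen, rose from 5029, 2857 and 1528 to 28696, 13779 and 18035 (log2 fold change 2.76 ± 0.35 SE, edgeR adjusted p = 0.019). Its partner chain *COL1A2* had 38241, 52911 and 55772 at P5 and 67781, 35547 and 71403 at P8 and did not pass (log2 fold change 0.19, edgeR adjusted p = 0.75). *LOX*, which crosslinks collagen, rose by 2.45, thrombospondin *THBS1* by 2.36, fibronectin *FN1* by 1.71, *COL5A1* by 1.59 and *SPARC* by 1.51 on the log2 scale. The basement membrane collagens *COL4A1* and *COL4A2* rose by 1.00 and 0.76. *SPARC* was among the most abundant transcripts of the list per length, with a mean of 2050 TPM at P5 and 6240 at P8. *COL6A3*, the member with the highest counts at P5, did not pass, at 124079, 148124 and 124550 against 90122, 28060 and 114843.

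Receptors and modifiers of the matrix went the same way where they passed. Of 20 integrins and laminins 3 rose (2.78% of all genes), *ITGA4*, *LAMA5* by 1.59 and *LAMB2* by 0.83 on the log2 scale, and 18 of the 20 log2 fold changes were positive (50.1% over all genes). Of 20 proteases and inhibitors 3 rose (2.78% of all genes), among them the inhibitors *TIMP1*, which blocks metalloproteinases, by 1.28, and *SERPINE2*, a serpin, by 0.77. *TIMP3* had 13196, 31081 and 23708 counts at P5 and 9565, 8189 and 11852 at P8 and did not pass (log2 fold change -1.14, edgeR adjusted p = 0.072). Among 14 regulators of epithelial-mesenchymal transition and mesenchymal cadherins, 1 rose and 1 fell (2.78% and 1.15% of all genes). *CDH2* (N-cadherin) rose from 13256, 14815 and 6269 to 20407, 22664 and 9477 (log2 fold change 0.59 ± 0.07 SE, edgeR adjusted p = 0.019), and *CDH11* fell. The *CDH2* call was lost with the block shared by both fractions (log2 fold change 0.59), with no block and in the MES libraries alone. The transcription factors of this transition did not pass, with *SNAI1* at 952, 588 and 2032 against 186, 229 and 1376 (log2 fold change -1.43, edgeR adjusted p = 0.089) and *ZEB2* at 3217, 2436 and 3180 against 3649, 5385 and 14868 (log2 fold change 1.16, edgeR adjusted p = 0.15).

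Markers of other cell types that the fraction could hold were read in the same libraries. Of 20 genes of epithelial identity 14 could be tested, 5 rose and none fell (2.78% and 1.15% of all genes), the median was 1.48 and all 14 log2 fold changes were positive (50.1% over all genes). *CDH1* (E-cadherin) had 1.81, 4.91 and 1.95 counts at P5 and 18.6, 42.7 and 47 at P8 (log2 fold change 3.58, SE 0.50, edgeR adjusted p = 0.021), so it stayed low. *CDH3* (P-cadherin) rose from 1138, 4176 and 1396 to 6660, 11003 and 7664, *SPINT2* by 2.15, *EPCAM* by 1.46 and *OCLN* by 1.35. The summed TPM of the list was 183, 217 and 74.4 in P5_MES, 366, 636 and 192 in P8_MES, 213, 309 and 202 in P5_EPI and 314, 692 and 311 in P8_EPI. *GRHL2*, *CLDN3*, *CLDN7*, *ESRP2* and *RAB25* were among those too low to be tested. The sum was thus higher at P8 within each differentiation in both fractions, and the part that remaining epithelial cells had in it was not tested.

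Of the 19 pre-neural genes, which mark the epithelial cells of these cultures, 1 rose and 1 fell (2.78% and 1.15% of all genes), and the median was -0.58. *GDF11*, a ligand that promotes posterior *HOX* expression in the embryonic trunk, rose from 6984, 9589 and 6193 to 11361, 12623 and 9360 counts (log2 fold change 0.55, SE 0.09, edgeR adjusted p = 0.032). *POU3F2* fell from 2329, 808 and 735 to 722, 229 and 327 (log2 fold change -1.57, edgeR adjusted p = 0.023). *SOX2* had 5328, 4207 and 1953 counts at P5 and 11098, 5359 and 1780 at P8 (log2 fold change 0.41, edgeR adjusted p = 0.36), higher at P8 in r1 and r2 alone. *LIN28A*, an RNA-binding protein of immature cells, had 32069, 39258 and 19099 at P5 and 40959, 9574 and 1270 at P8 (log2 fold change -1.91, SE 1.00, edgeR adjusted p = 0.28). It was higher in r1 and lower in r2 and r3. The summed TPM of the list was 1120, 1051 and 620 in P5_MES, 1337, 646 and 333 in P8_MES, 2199, 1919 and 1709 in P5_EPI and 1778, 908 and 594 in P8_EPI.

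Lists of more distant fates were read as well. The neural tube list summed to 6.66 to 33.2 TPM at P5 and 9.18 to 21.9 at P8, and of its 9 tested genes *PAX2* fell by 2.52 and *PAX8* by 2.32 on the log2 scale (1.15% of all genes fell). The paraxial mesoderm list summed to 9.7 to 23.9 TPM at P5 and 18.1 to 29.8 at P8, with none of 9 tested genes past the test. The endothelial and blood list summed to 9.25 to 11.8 and 9.73 to 25.8 TPM, again with none of 8. The lateral plate list summed to 72.5 to 128.5 TPM at P5 and 38.8 to 108.6 at P8, and of its 10 tested genes *PITX1*, a hindlimb factor, rose (2.78% of all genes), from 0.906, 13.8 and 2.92 to 4.14, 50.2 and 19.2 counts (log2 fold change 2.14, edgeR adjusted p = 0.042). The pluripotency list summed to 167, 207 and 192 TPM at P5 and 151, 85.5 and 80.5 at P8, lower at P8 in each differentiation. Of its 8 tested genes *DPPA4* fell, from 1999, 1276 and 2493 to 706, 132 and 548 (log2 fold change -2.30, edgeR adjusted p = 0.034). The endoderm and surface ectoderm list summed to at most 0.44 TPM at P5 and 1.13 at P8.

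Signaling genes changed in both directions, and the counts of each list stand against 2.78% higher and 1.15% lower over all genes. In the BMP list of 24, 2 ligands rose and 1 fell. *BMP2* rose from 255, 558 and 175 to 2414, 7968 and 4871 counts (log2 fold change 3.93, SE 0.38, edgeR adjusted p = 0.011) and *BMP7* from 1759, 4431 and 3072 to 4936, 14712 and 8066 (log2 fold change 1.52, SE 0.10, edgeR adjusted p = 0.0073). *BMP5* fell from 785, 1039 and 2036 to 278, 299 and 263 (log2 fold change -2.10, edgeR adjusted p = 0.039). *BMP4*, the most abundant ligand of the list, had 20180, 16426 and 19304 at P5 and 3955, 12120 and 14771 at P8 and did not pass (edgeR adjusted p = 0.17). The direct BMP target *ID1* was lower at P8 in r1 and higher in r3 (3618, 1889 and 3036 against 766, 1934 and 8701). In the TGF-beta list 4 of 19 tested genes rose and none fell (2.78% and 1.15% of all genes), among them *TGFB2*, from 1978, 2380 and 743 to 5983, 5861 and 1775 (log2 fold change 1.37, edgeR adjusted p = 0.015), *GDF11*, and the target *TGFBI*, by 1.81.

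Of 32 WNT genes 4 rose and 1 fell (2.78% and 1.15% of all genes), with a median of 0.04. *WNT5A*, a ligand of noncanonical signaling, rose from 20171, 33103 and 13998 to 57381, 82228 and 29645 counts (log2 fold change 1.28, SE 0.11, edgeR adjusted p = 0.011). The antagonist *DKK2* rose by 3.20 and the receptor *FZD8* by 1.72. The antagonist *SFRP4* had at most 3 counts in each P5 library and 38.6, 162 and 10.7 normalized counts at P8 (edgeR adjusted p = 0.032), with the highest value in r2. *ROR1*, a receptor of *WNT5A*, fell by 1.18. *AXIN2*, a target of beta-catenin, had 32034, 15467 and 17308 at P5 and 15602, 17955 and 34957 at P8 (edgeR adjusted p = 0.96). In the FGF list of 24, *FGF12* rose by 1.83 and the receptor *FGFR3* by 1.57, while *FGF10*, *FGF19* (by 2.58) and the feedback gene *SPRED2* (by 0.38) fell.

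In the retinoid list 2 of 19 rose and 2 fell (2.78% and 1.15% of all genes). *DHRS3*, a retinal reductase, rose from 9.06, 14.7 and 8.75 to 230, 334 and 213 counts (log2 fold change 4.55, SE 0.39, edgeR adjusted p = 0.011), and *CYP26B1*, which degrades retinoic acid, from 30.8, 55 and 22.4 to 175, 795 and 532 (log2 fold change 3.62, edgeR adjusted p = 0.022). The nuclear receptor *NR2F1* fell by 2.59 and *STRA6*, the retinol transporter, by 1.08. In the homeobox list *MEIS1* and *PBX3*, whose proteins bind DNA together with HOX proteins, fell by 2.91 (SE 0.31, edgeR adjusted p = 0.015) and 1.20 (SE 0.13, edgeR adjusted p = 0.015), and *DLX1* and *EVX2* rose. *MEIS1* had 801, 385 and 817 counts at P5 and 180, 44.6 and 73.7 at P8. In the Hedgehog list *GLI3* rose by 0.64 as 1 of 11 tested (2.78% of all genes), and in the Notch list none of 15 passed. Of 26 guidance genes 2 fell (1.15% of all genes), *EPHA3* from 14159, 5654 and 15285 to 1489, 1409 and 810 (log2 fold change -3.19, edgeR adjusted p = 0.039) and the netrin receptor *UNC5C* by 2.92.

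None of the 20 DNA replication and 20 mitosis genes passed the test. All 40 had a negative log2 fold change (49.9% of all genes tested), with medians of -0.43 and -0.34, and 15 and 16 of the 20 were lower at P8 in all 3 differentiations, as were 22.2% of all genes. *MCM7*, a subunit of the replicative helicase, had 15410, 18984 and 18262 counts at P5 and 14718, 12757 and 11265 at P8 (log2 fold change -0.46, SE 0.16, edgeR adjusted p = 0.14), and *MKI67* had 38795, 27719 and 30558 against 31645, 26613 and 28635 (log2 fold change -0.17). Of 19 CDK inhibitors and p53 targets 2 rose (2.78% of all genes). *CDKN1A* (p21) rose from 1771, 1349 and 1215 to 2851, 3048 and 3892 (log2 fold change 1.16, SE 0.19, edgeR adjusted p = 0.033) and *ZMAT3* by 0.72. Of 17 genes of cholesterol synthesis 5 fell and none rose, where 1.15% of all genes fell, and the median was -0.24. *HMGCS1*, the synthase that makes HMG-CoA, had 31020, 37816 and 35249 counts at P5 and 20884, 24596 and 22325 at P8 and fell by 0.63 on the log2 scale. Among the others, *FDFT1* fell by 0.55, *FDPS* by 0.48 and *SC5D* by 0.42. In the hypoxia and glycolysis list *NDRG1* rose, by 2.13, as 1 of 17 (2.78% of all genes).

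**Figure D4:**
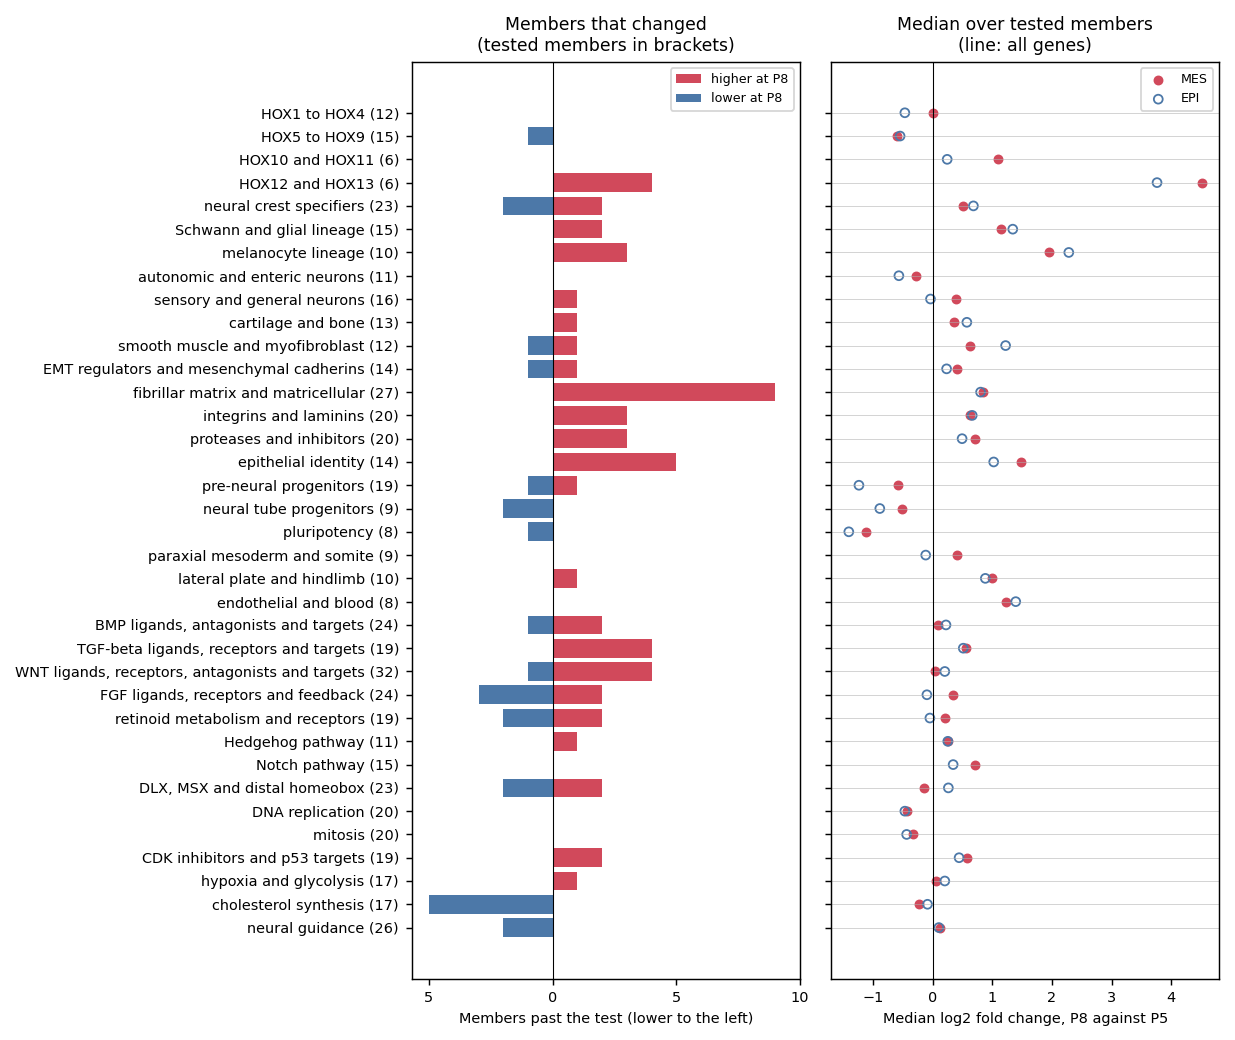
Left, number of members of each gene list that passed the test in P8_MES against P5_MES, higher to the right and lower to the left, with the number tested in brackets. Right, median log2 fold change of the tested members in the mesenchymal (filled) and epithelial fraction (open), with the median of all genes as a line; the *HOX12* and *HOX13* median is 4.51 in MES and 3.76 in EPI.

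To ask whether these changes were particular to the mesenchymal fraction, the difference between its change and that of the epithelial fraction was tested in the same fit. None of 18885 genes passed in edgeR (0% called), and 930 had an unadjusted p under 0.05. DESeq2 called 32 genes. In the epithelial fraction 266 genes rose (1.41%) and 73 fell (0.387%) from P5 to P8, 1.8% of those tested. Of the 525 genes that rose in MES, 517 had a positive log2 fold change in EPI (51.02% of all genes) and 186 (35.4%, or 69.9% of the EPI risers) rose there too. Of the 218 that fell in MES, 210 had a negative log2 fold change in EPI and 48 (22%, or 65.8% of the EPI fallers) fell there too. No gene was called higher in one fraction and lower in the other. Across genes the changes of the same differentiation in MES and EPI, which share no library, had a Pearson r of 0.75 in r1, 0.85 in r2 and 0.82 in r3 over 12962 genes, which are not independent replicates. The median log2 fold change of the 525 was 1.58 in MES and 1.14 in EPI, and that of the 218 was -1.18 in MES and -0.56 in EPI, but the genes were chosen on the MES values.

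All 15 genes with the largest rise in MES had a positive log2 fold change in EPI, and 9 passed there. *CXCL14* had 4.21, 34.7 and 10.7 counts in P5_EPI and 859, 7114 and 4499 in P8_EPI, a log2 fold change of 8.00 against 7.33 in MES. *TNC* had a log2 fold change of 3.10 in MES and 1.38 in EPI, where it went from 7362, 10293 and 7148 to 19402, 31669 and 15358 counts. The difference of 1.73 (SE 0.30) had an edgeR adjusted p of 1.0 and a DESeq2 adjusted p of 9e-05. *SOX6* fell in MES and had a log2 fold change of 0.11 in EPI, a difference of -1.38 (SE 0.26, edgeR adjusted p = 1.0, DESeq2 adjusted p = 0.0066). *SOX9*, which did not pass in MES at 0.58, had a log2 fold change of 2.02 in EPI, a difference of -1.45 (SE 0.26, edgeR adjusted p = 1.0, DESeq2 adjusted p = 0.0023). *CDH2* was higher at P8 in all 3 MES pairs and lower in all 3 EPI pairs, at 26220, 30169 and 23024 against 25176, 25150 and 19725 in EPI.

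**Figure D5:**
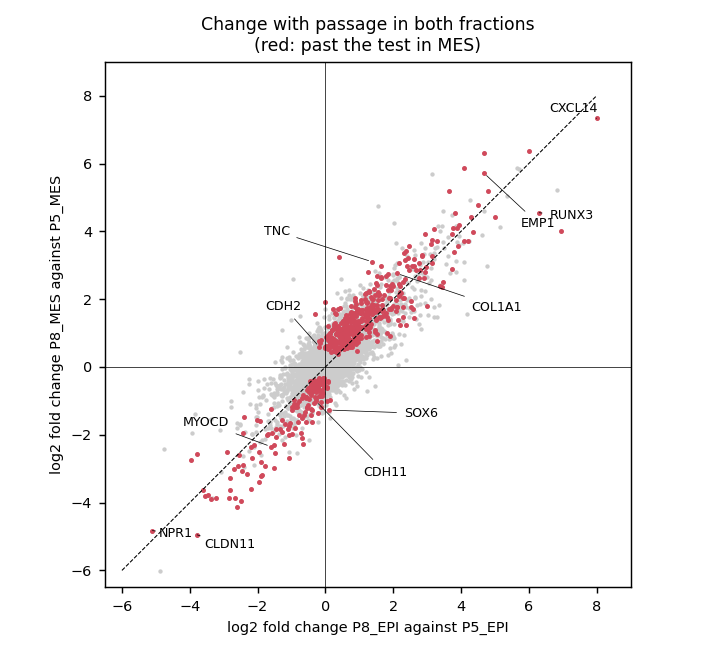
Log2 fold change between P8 and P5 in the epithelial (horizontal) and mesenchymal fraction (vertical) for genes that averaged 100 or more normalized counts in the 6 MES libraries; red points passed the test in MES and the dashed line marks equal change. Most red points share their sign in both fractions, and *TNC* lies above the line at 3.10 in MES and 1.38 in EPI.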

How the data were processed

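Poly(A) RNA of the fractions was read as 75-bp single ends. The authors aligned and quantified each library; the submitters' processing notes name cutadapt 1.16, STAR 2.5.2b, RSEM 1.3.0 and GRCh38. The annotation release, strand setting and read filters are not given in the sources used here. The deposited values are RSEM expected counts, estimates in which ambiguous reads are shared out (9.33% were not whole within 0.005), and were rounded for every test. The deposited TPM values, scaled by RSEM for transcript length and depth, served for levels and the *HOX* index. Of 58051 Ensembl genes, 57447 matched a GENCODE 29 symbol, and gene positions were taken from that release on GRCh38.

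The 12 fraction libraries were fitted together with edgeR 4.0.16 (limma 3.58.1, R 4.3.3; filterByExpr, TMM, glmQLFit, glmQLFTest) with 1 term per differentiation and fraction, so that each P8 library was set against its own P5 library and the epithelial pairs added only to the estimate of spread. The 4 residual degrees of freedom treat the MES and EPI pairs of a differentiation as independent, although their changes correlated across genes at 0.75 to 0.85. SE is the absolute log2 fold change divided by the square root of F. Calls are Benjamini-Hochberg adjusted p under 0.05 over 18885 genes. The design text ties a replicate number to 1 differentiation, and deviations of same-numbered libraries from their group means had correlations of 0.22, 0.16 and 0.34 over 12943 genes. The mean for different numbers was -0.12. Because deviations were taken from means of 3 libraries, that value largely follows from the others and is no separate support for the pairing. No pair of replicates agreed within sampling noise. The 3 differentiations share 1 cell line, so p-values measure the spread between differentiations of it. Normalized counts are rounded counts divided by TMM effective library sizes of the 47 libraries, themselves set to average 1 geometrically. Depth limits cover counting error only.

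Named genes were the 15 with the largest change in each direction (mean of at least 100 normalized counts, same direction in all 3 pairs), all *HOX* genes, the 15 crest mesenchyme markers and, per list of 37, up to 4 changed and the 2 most abundant members; *FN1*, *COL5A1*, *COL4A1*, *COL4A2*, *COL1A2*, *OCLN*, *SOX2*, *ACTA2*, *ID1*, *AXIN2*, *ROR1*, *SPRED2*, *SC5D* and the members named as too low to be tested were added after their values were seen, and a few genes that meet the rule are not reported here. The promoter motifs were also chosen after the calls were known. Members and lists were chosen with earlier results of these data known. On simulated counts for 18580 genes with known changes, the test recovered 26 of 50 genes raised 2-fold, 46 of 50 raised 4-fold, 19 of 50 lowered 2-fold and 41 of 50 lowered 4-fold in P8_MES, with 9 false calls. The changed genes were drawn from those with a fitted mean of at least 50 counts. Each library was simulated independently, without the correlation between MES and EPI pairs seen in the data. The 9 false calls therefore do not measure the error rate under that correlation. Alternatives were no block, 1 block shared by both fractions, the 6 MES libraries alone, DESeq2 1.42.0, its size factors within edgeR, other count filters, stricter thresholds and each differentiation left out.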

Additional observations from a re-analysis of the deposited data

Results flagged for a closer look

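5 named genes were higher at P8 than at P5 in all 3 pairs of 1 fraction and lower in all 3 pairs of the other. The naming rule covers 193 genes with a fitted value. The share of such genes over all genes tested was not counted, so 5 cannot be called many or few. The cadherin *CDH2* rose in the mesenchymal fraction and was lower in each epithelial pair, with a difference between the log2 fold changes of 0.77 (SE 0.10). The difference was 0.51 for *HOXA2* and 0.52 for *HOXB3*, both higher at P8 in MES and lower in EPI. It was -0.97 for *CDON*, a Hedgehog co-receptor, and -0.62 for *NRP2*, a semaphorin receptor, both lower at P8 in MES and higher in EPI. None of the 5 differences passed after Benjamini-Hochberg adjustment in edgeR (adjusted p = 1.0), and DESeq2 called that of *CDH2* (adjusted p = 2e-06). Of the 5 genes only *CDH2* passed the test of its change in MES, and that call was lost with the block shared by both fractions.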

How the results depend on the processing

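The count of 525 higher and 218 lower genes (743 in all) depends on how the spread is estimated. With no replicate block it was 76 and 36 (112). With a replicate block shared by both fractions it was 1265 and 881 (2146), with 705 of the 743 calls among them. Of the 95 named calls 6 were lost there, among them *CDH2*, *ZIC1* and *MYOCD*. The 6 MES libraries alone with the replicate block gave 73 and 15 (88), and the DESeq2 Wald test gave 1582 and 833 (2415). Leaving out 1 differentiation gave 0 to 768 higher, 0 to 517 lower and 0 to 1285 in all, the highest without r1 and the lowest without r3; it leaves 8 libraries in the fit. At least 2-fold changes alone left 121 lower, and the thresholds of the study 13 and 3 (16). DESeq2's size factors and both other count filters kept the counts within 1.5 times. Every called gene with a value kept its sign in each of these fits, and of the 30 genes with the largest change all 30 were called with the shared block and with DESeq2, 11 with no block, 7 in the MES libraries alone, 26 without r1, 1 without r2 and 0 without r3. The 0 genes whose change differs between MES and EPI became 14 higher and 18 lower (32) in DESeq2 and stayed at 0 in the edgeR alternatives. The cause of these differences was not tested. The mean change of the *HOX* index kept its sign and stayed within 1 SD of 1.03 under every alternative, and 3 against 3 without pairs gave an exact p of 0.1, the smallest possible. Low genes such as *HOTTIP* and *EVX2* are limited by counts of 0 to 27.5 at P5.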
